A study of Mus musculus with 9 samples.

Results

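The presynaptic vesicle and SNARE genes analysed here are 75 protein-coding genes picked by gene name. No measured value enters that rule, but earlier results of these data were known when the members were chosen. They comprise 17 synaptotagmins, 26 SNAREs and the SNARE adaptor Napb, 14 SNARE regulators, 12 vesicle proteins and 6 active zone scaffolds. They are 75 of the 33175 genes with a count in at least 1 library, and together took 1.69% to 1.96% of the counts of a library. Their levels were measured by RNA sequencing of hippocampus from female mice aged 9 months, in 9 libraries that fall into 3 groups of 3.

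The LP-10d group were 3xTg mice given the compound LP-10d by mouth at 10 mg/kg, 4 times a week for 1 month. The 3xTg vehicle group were mice of the same line that received the solvent alone by mouth, also 4 times a week. The WT vehicle group were C57BL/6J mice given the same solvent. The genotype label of every 3xTg library names APPSwe, tauP301L and a mutant PS1, and the PS1 entry counts up by 1 residue number from library to library, from M146V to M151V. Such a run of numbers is unusual for 1 line, and the 6 libraries were treated as 1 genotype. In the 3xTg line the human APP and MAPT transgenes are driven by the Thy1 promoter, which is active in neurons, and the PS1 mutation is a knock-in. The labels give a strain only for the WT mice, so any difference in strain and the effect of the transgenes cannot be told apart. The labels do not say that replicates came from separate animals, so the tests measure the spread between these samples, which may be technical.

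At a nerve terminal, transmitter is packed into synaptic vesicles that dock at the active zone, a protein scaffold opposite the postsynaptic side. Fusion is driven by SNARE proteins, with synaptobrevin (Vamp) on the vesicle and syntaxin and Snap25 on the plasma membrane, which zip into a bundle under the control of Munc13 and complexin proteins. Synaptotagmins sense calcium and trigger the final step, and the SNAP adaptors with the ATPase Nsf then take the spent bundle apart. Loss of presynaptic proteins in the hippocampus is a well-known feature of Alzheimer's disease.

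Total counts ran from 16582086 to 19170969 per library. Of the 75 members, 70 passed the low-count filter and were tested among 17396 genes. The other 5 were Syngr4, Stx11, Syt8, Cplx4 and Stx19, each with at most 9 counts in any library. Before the results, 3 libraries need naming because they stand apart. WT vehicle 3 held the highest value of 22 of the 70 tested members and the lowest of another 22, or 31.4% each, against 26.3% and 28.3% of all tested genes. WT vehicle 2 held the lowest value of a further 22 members, 31.4%, against 11.2% of all tested genes, and its median member lay 0.12 below the member's mean over 9 libraries on the log2 scale. In the other 8 libraries that median lay between -0.02 and 0.05. In 3xTg vehicle 2 the summed level of 8 striatal markers was 1538 CPM, against 181 to 309 CPM in the other 8 libraries. CPM are counts scaled by TMM-corrected library size, and they do not account for gene length. Markers of hippocampal fields were present in every library: dentate gyrus markers summed to 179 to 447 CPM and CA1 markers to 534 to 856 CPM. Choroid plexus markers ranged from 42.5 to 4394 CPM and varied within every group. In bulk tissue, fewer cells of a type and less RNA per cell cannot be told apart.

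Genes of the fusion machinery were among the most abundant of this tissue, with Cplx1 at rank 53 of 18409 protein-coding genes by mean FPKM. Measured per transcript length, 68 of the 75 members averaged at least 1 FPKM (fragments scaled by gene length and library total) and 13 averaged at least 100 FPKM. These 13 made up 69.7% of the summed FPKM of the members. Among them were Cplx1 at 331 FPKM, Cplx2 at 311, Vamp2 at 255, Snap25 at 223, Syn1 at 221, Syt1 at 165, Syp at 163, Syt11 at 154, Syngr1 at 143, Sv2a at 125 and Snap47 at 115. Each role therefore had an abundant member, except the scaffolds, where Bsn led with a mean of 51.2 FPKM. The neuronal syntaxin Stx1a stood at 65.2 FPKM and the endosomal syntaxin Stx6 at 12.02 FPKM. Cplx1 and Cplx2 exceeded Cplx3, at 3.02 FPKM, in every library. Between its highest and lowest library a tested member differed by a median of 1.498-fold in CPM. This ratio was under 1.5-fold for 35 members and over 2-fold for 16, with the smallest for Stx16 (1.15-fold). The largest ratios were those of Vamp5 (7.44-fold), Cplx3 (6.63-fold), Syt6 (5.28-fold), Vamp8 (4.65-fold) and Syt9 (4.05-fold), all of them low in FPKM.

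**Figure D1:**
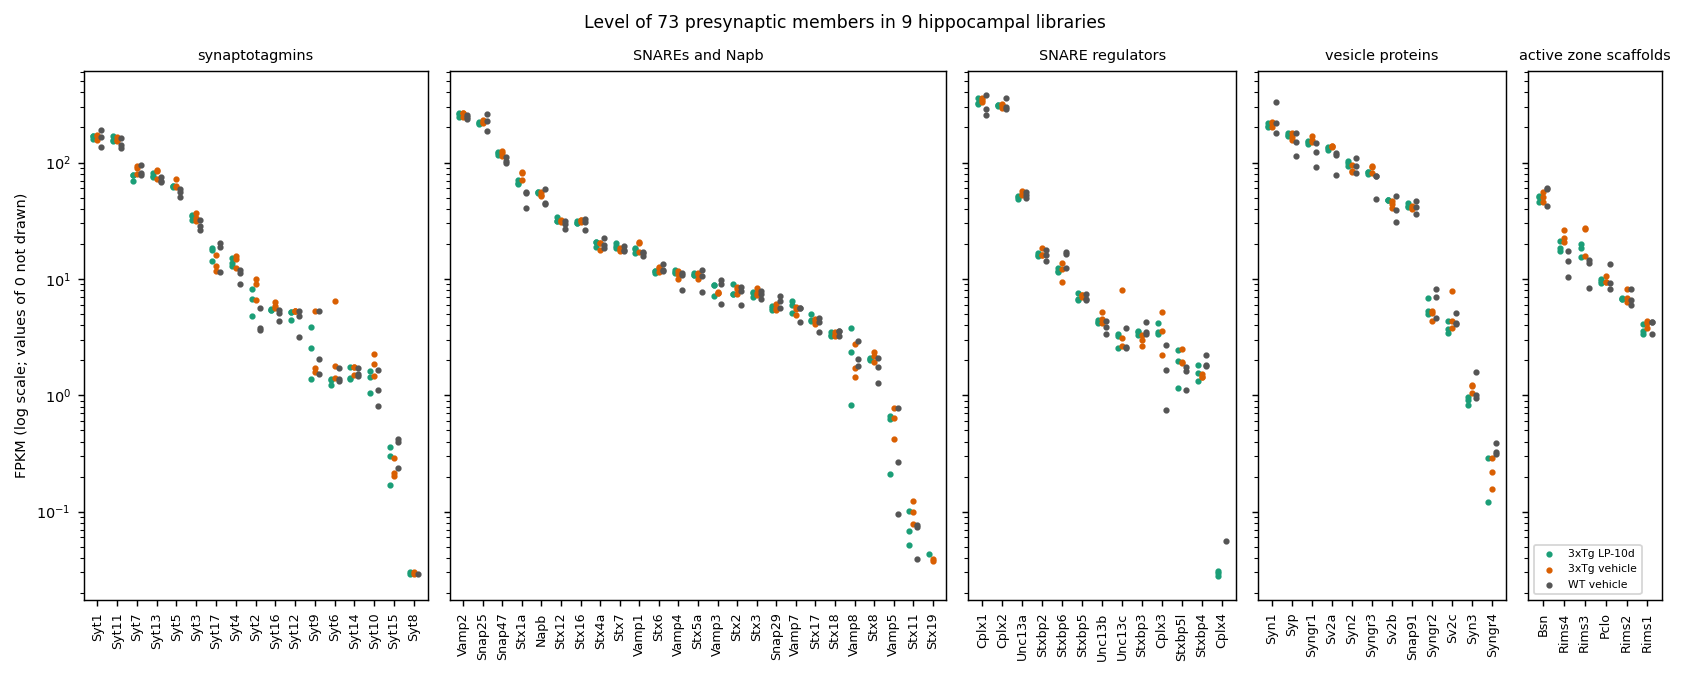
FPKM on a log scale of 73 of the 75 members in each library, by role and in order of the mean. Each point is 1 library, with 3xTg LP-10d left, 3xTg vehicle in the middle and WT vehicle right for each gene. Among members of at least 100 FPKM, the highest library exceeded the lowest by 1.17-fold (Vamp2) to 2.04-fold (Syn1) in CPM. The low members Syt6, Cplx3, Vamp5 and Vamp8 spread more widely.

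In 3xTg vehicle hippocampus most of the core fusion machinery stood close to its WT vehicle level with all libraries used, and the clearest differences lay in a few members of moderate or low abundance: the syntaxin Stx1a, the short RIM proteins Rims3 and Rims4 and the calcium sensor Syt2, all higher in 3xTg vehicle. No member passed edgeR's quasi-likelihood test at a Benjamini-Hochberg adjusted p of 0.05, where 0.00575% of all tested genes did. At an edgeR unadjusted p under 0.05 there were 17 of 70 members (14 higher and 3 lower in 3xTg vehicle), or 24.3%, against 14.1% of all tested genes. Without 3xTg vehicle 3 the 17 became 10, in a fit where the share of all tested genes was not taken. The 3xTg vehicle libraries all lay above the WT vehicle libraries for 9 members, against 9.38% of all genes, and all below for 2, against 7.99%. Both directions together came to 15.7% of the members and 17.4% of all tested genes. The median log2 fold change was 0.04 over the 70 members, of which 43 were higher and 27 lower, beside 0.00066 over all tested genes. By role, the median was 0.16 for synaptotagmins (12 of 16 higher), 0.07 for vesicle proteins (6 of 11), 0.04 for SNARE regulators (8 of 13), 0.03 for SNAREs and Napb (15 of 24) and -0.01 for active zone scaffolds (2 of 6). With WT vehicle 3 and 3xTg vehicle 2 both left out, 5 of the 6 scaffolds and 12 of the 24 SNAREs and Napb were higher. The synaptotagmins then had 13 of 16 higher, the vesicle proteins 8 of 11 and the SNARE regulators 8 of 13.

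DESeq2, run as an alternative on the same genes, called 4 members in this comparison, Stx1a, Rims4, Syt2 and Rims3, all of them higher in 3xTg vehicle. It called 2.19% of all genes to which it gave an adjusted p. These calls depended on the libraries used. Without 3xTg vehicle 3 DESeq2 called 1 member, Stx1a, and without 3xTg vehicle 2 it called Stx1a and Rims4. Without WT vehicle 2 it called 7 and without WT vehicle 1 it called 6. With WT vehicle 3 and 3xTg vehicle 2 both left out it called 3, Stx1a, Rims4 and Cplx3. Stx1a was called in each of these fits and Rims4 in all but the fit without 3xTg vehicle 3.

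Stx1a encodes syntaxin 1A, the plasma membrane SNARE of the neuronal fusion complex, and lies on the plus strand of chromosome 5 from 135023482 to 135051100 (mm10). Its level was 174, 171 and 187 CPM in the LP-10d libraries, 187, 218 and 216 CPM in the 3xTg vehicle libraries and 151, 144 and 114 CPM in the WT vehicle libraries. All 3 WT vehicle libraries lay below all 6 libraries of 3xTg mice, and WT vehicle 3 was the lowest. The log2 fold change of 3xTg vehicle over WT vehicle was 0.60 ± 0.11 (SE), with an edgeR adjusted p of 0.0936. Over the alternative fits it ran from 0.44 to 0.68, with adjusted p-values of 0.000313 to 0.372, and only DESeq2 fits fell under the threshold.

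Rims4 (chromosome 2, 163859751 to 163918683, minus strand) and Rims3 (chromosome 4, 120854816 to 120896579, plus strand) encode short RIM proteins, which lack the Rab3-binding part of the long forms but keep a C-terminal membrane-binding domain. Rims4 stood at 90.7, 84.2 and 105 CPM in the LP-10d libraries, 102, 110.4 and 129 CPM in the 3xTg vehicle libraries and 73.5, 84.5 and 55.3 CPM in the WT vehicle libraries. The 3xTg vehicle libraries all exceeded the WT vehicle libraries, and the LP-10d libraries overlapped both groups. The log2 fold change against WT vehicle was 0.68 ± 0.15, with an edgeR adjusted p of 0.126. Rims3 had 145, 121 and 159 CPM in the LP-10d libraries, 125, 214 and 215 CPM in the 3xTg vehicle libraries and 68.7, 106 and 123 CPM in the WT vehicle libraries. Its 3xTg vehicle libraries split, with replicate 1 just above the highest WT vehicle library and the other two far above. This gave a log2 fold change of 0.90 ± 0.24, with an edgeR adjusted p of 0.188.

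Syt2 (chromosome 1, 134646677 to 134762593, plus strand) encodes a fast calcium sensor that many fast-spiking inhibitory neurons use. It was at 50.1, 36.0 and 62.6 CPM in the LP-10d libraries, 50.4, 68.2 and 76.0 CPM in the 3xTg vehicle libraries and 29.9, 42.1 and 29.8 CPM in the WT vehicle libraries. All 3xTg vehicle values lay above all WT vehicle values, and LP-10d values spread over both ranges. The log2 fold change of 3xTg vehicle over WT vehicle was 0.93 ± 0.22, with an edgeR adjusted p of 0.146. Marker lists were also unequal between these libraries. GABAergic neuron markers summed to 605 to 759.8 CPM in the 3xTg vehicle libraries, against 558 to 601 CPM in WT vehicle, with 5 of 6 higher. Neocortex markers summed to 249 to 354 CPM in 3xTg vehicle, against 170 to 238 CPM in WT vehicle, with 5 of 5 higher, and dentate gyrus markers to 179 to 309.5 CPM in 3xTg vehicle, against 322 to 447 CPM in WT vehicle, with 5 of 5 lower. The CA2 and CA3 markers summed to 229 to 291 CPM in 3xTg vehicle, against 275 to 374 CPM in WT vehicle, with 4 of 4 lower. Pan-neuronal markers summed to 2940 to 3072 CPM in 3xTg vehicle, against 2492 to 2832 CPM in WT vehicle. Of these 7 markers 5 were higher, and their smallest edgeR adjusted p was 0.0758. Of the CA1 markers 2 of 4 were higher, and choroid plexus markers were lower in 7 of 7, with sums that overlapped between the groups. None of these markers was at 0 in any library and none passed edgeR's adjusted threshold. DESeq2 called 2 neocortex markers and 1 each of the pan-neuronal, GABAergic, dentate gyrus and CA2 and CA3 lists. The part of the markers in the differences of Syt2, Rims3, Rims4 and Stx1a was not tested.

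Promoter sequences from RefSeq (GRCm38.p6, 250 bases before to 50 after the start site) are shown for Stx1a, Rims3 and Syt2, because these are genes that DESeq2 called higher in 3xTg vehicle. They are written 5′ to 3′ on the gene's own strand, and capitals mark the GC box GGGCGG or its reverse complement CCGCCC, the letters of the site bound by Sp1-type factors. The windows are chr5:135023232-135023531 for Stx1a, chr4:120854549-120854848 for Rims3 and chr1:134646362-134646661 for Syt2, all on the plus strand.
Stx1a: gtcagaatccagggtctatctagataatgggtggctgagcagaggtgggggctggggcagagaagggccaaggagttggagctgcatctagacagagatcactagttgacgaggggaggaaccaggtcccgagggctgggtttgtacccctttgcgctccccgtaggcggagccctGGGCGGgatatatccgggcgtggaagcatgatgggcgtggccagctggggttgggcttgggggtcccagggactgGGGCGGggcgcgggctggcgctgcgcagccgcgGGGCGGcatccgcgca
Rims3: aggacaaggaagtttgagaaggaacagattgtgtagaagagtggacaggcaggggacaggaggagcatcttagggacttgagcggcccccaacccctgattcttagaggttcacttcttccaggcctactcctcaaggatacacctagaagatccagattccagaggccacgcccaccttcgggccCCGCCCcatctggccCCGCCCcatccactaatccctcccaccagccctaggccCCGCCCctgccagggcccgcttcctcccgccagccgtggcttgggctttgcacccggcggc
Syt2: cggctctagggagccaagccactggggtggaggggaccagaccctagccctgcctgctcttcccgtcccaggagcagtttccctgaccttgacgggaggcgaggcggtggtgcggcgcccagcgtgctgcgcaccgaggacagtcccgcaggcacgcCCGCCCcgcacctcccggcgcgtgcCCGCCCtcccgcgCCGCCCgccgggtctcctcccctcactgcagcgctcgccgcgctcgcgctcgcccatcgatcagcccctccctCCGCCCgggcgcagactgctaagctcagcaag
The windows hold 3, 3 and 4 GC boxes, in that order, and none holds TATAAA. Among the 57 members with such a sequence, 75.4% had at least 1 GC box on either strand, against 35.9% of the promoters of all 27025 genes in the reference table and 55.0% of those of 14278 protein-coding genes. TATAAA, searched on both strands, was in 3.51% of the members' promoters, against 14.2% of all and 9.76% of protein-coding ones. The cAMP response element TGACGTCA, which reads the same on both strands and overlaps neither motif, was in 3.51%, against 1.88% of all and 2.72% of protein-coding promoters. The median GC content was 64.3% for the members and 52.7% for all 27025 genes, which are not only protein-coding, and it was not taken for protein-coding genes alone. For members the start nearest the deposited 5′ end of the gene was used, and for the other sets the first listed start of each gene. A match is a run of letters in this window and says nothing of binding.

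**Figure D2:**
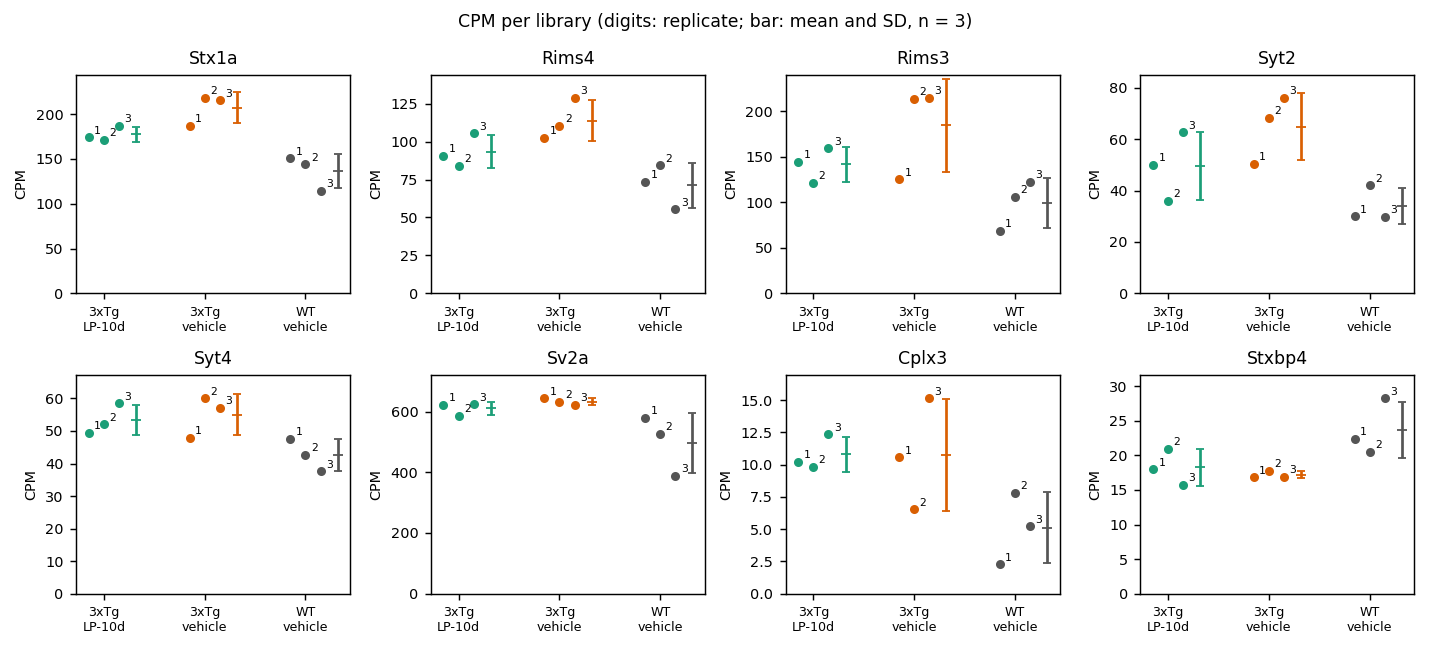
CPM of 8 members in each library, with 3xTg LP-10d left, 3xTg vehicle in the middle and WT vehicle right. Digits give the replicate, and the bar at the side of each group gives the mean and SD (n = 3). Stx1a, Rims4, Rims3, Syt2, Syt4 and Sv2a lie higher in every 3xTg vehicle library than in any WT vehicle library, Stxbp4 lies lower, and Cplx3 overlaps.

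The main calcium sensors did not differ beyond the spread between libraries. Syt1, which triggers fast synchronous release, was at 1379, 1299 and 1414 CPM in the LP-10d libraries, 1399, 1284 and 1436 CPM in the 3xTg vehicle libraries and 1419.6, 1092 and 1704 CPM in the WT vehicle libraries. The WT vehicle libraries alone spanned the whole range, with replicate 2 lowest and replicate 3 highest. Its log2 fold change in 3xTg vehicle was -0.03 ± 0.14, with a 95% interval of -0.38 to 0.32. Syt7, which serves slower, asynchronous release, had a log2 fold change of 0.01 ± 0.10 in 3xTg vehicle against WT vehicle. Syt4, a member found on peptide-containing vesicles, stood at 49.4, 52.1 and 58.5 CPM in the LP-10d libraries, 47.9, 60.1 and 57.1 CPM in the 3xTg vehicle libraries and 47.6, 42.8 and 37.6 CPM in the WT vehicle libraries. Its 3xTg vehicle libraries exceeded the WT vehicle libraries, replicate 1 by a narrow margin, and the log2 fold change was 0.37 ± 0.12 with an edgeR adjusted p of 0.245. In the annotation 14.5% of the exon bases of Syt4 are shared with Gm26658, so counts of both may mix. Syt5 and Syt16 also had separated groups, with log2 fold changes of 0.20 ± 0.08 and 0.22 ± 0.09. Neither reached edgeR's adjusted threshold.

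Among the SNAREs, the vesicle and plasma membrane partners of Stx1a stayed near their WT vehicle level. Snap25 was at 1465, 1427 and 1521 CPM in the LP-10d libraries, 1498, 1476 and 1575 CPM in the 3xTg vehicle libraries and 1605, 1236 and 1881 CPM in the WT vehicle libraries. WT vehicle held both the lowest library, replicate 2, and the highest, replicate 3. The log2 fold change in 3xTg vehicle was -0.05 ± 0.14, with a 95% interval of -0.39 to 0.28. Vamp2, the main vesicle SNARE of forebrain, was the steadiest of the core at 975, 917 and 1023 CPM in the LP-10d libraries, 1018, 930.4 and 998 CPM in the 3xTg vehicle libraries and 1013, 874 and 1006 CPM in the WT vehicle libraries. Its groups overlapped, and the log2 fold change was 0.03 ± 0.09 (-0.20 to 0.25). For Vamp1, its relative, it was 0.19 ± 0.09. Napb, the neuronal SNAP adaptor, stood at 0.06 ± 0.12.

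The SNARE regulators showed no common direction. The complexins Cplx1 and Cplx2, which clamp and then promote fusion, had log2 fold changes of 0.10 ± 0.15 and -0.08 ± 0.10, and the priming factor Unc13a (Munc13-1) of -0.01 ± 0.08. With WT vehicle 3 and 3xTg vehicle 2 both left out, Cplx1 was at 0.34 on the log2 scale (edgeR adjusted p = 0.253), and DESeq2 then called it in the mean of both 3xTg groups against WT vehicle. The 95% interval for Unc13a was -0.20 to 0.19. Cplx3, a minor complexin, was at 10.2, 9.84 and 12.3 CPM in the LP-10d libraries, 10.6, 6.53 and 15.1 CPM in the 3xTg vehicle libraries and 2.28, 7.81 and 5.23 CPM in the WT vehicle libraries. Its fold change was large but uneven, at 1.07 ± 0.38 on the log2 scale, since 3xTg vehicle 2 lay below WT vehicle 2. Cplx3 did not pass edgeR's test (adjusted p = 0.287). Lower in 3xTg vehicle were Stxbp4, at 16.8, 17.8 and 16.9 CPM in the 3xTg vehicle libraries and 22.4, 20.5 and 28.3 CPM in the WT vehicle libraries, and Stxbp3 (Munc18c, the partner of syntaxin 4), at 17.5, 15.8 and 13.9 CPM in the 3xTg vehicle libraries and 18.4, 22.0 and 19.9 CPM in the WT vehicle libraries. In both the groups did not overlap, and the log2 fold changes were -0.46 ± 0.14 and -0.35 ± 0.11, with edgeR adjusted p-values of 0.231 and 0.244.

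Among the vesicle proteins, Sv2a, the glycoprotein that binds the drug levetiracetam, was at 623, 586 and 624 CPM in the LP-10d libraries, 644, 632 and 623 CPM in the 3xTg vehicle libraries and 579, 526 and 388 CPM in the WT vehicle libraries. The 6 libraries of 3xTg mice lay above all 3 WT vehicle libraries, LP-10d 2 only just above WT vehicle 1, and WT vehicle 3 was far the lowest. In 3xTg vehicle the log2 fold change was 0.35 ± 0.13, with an edgeR adjusted p of 0.293, and it was 0.19 with WT vehicle 3 and 3xTg vehicle 2 both left out. Synaptophysin (Syp), the common marker of synaptic vesicles, had 911, 864 and 898 CPM in the LP-10d libraries, 935, 802 and 856 CPM in the 3xTg vehicle libraries and 957, 765 and 634 CPM in the WT vehicle libraries. Its groups overlapped, and the log2 fold change was 0.14 ± 0.14 (-0.19 to 0.47), or -0.0010 without WT vehicle 3. In Syp 16.8% of the exon bases are shared with Gm14703. Synapsin 1 (Syn1), which tethers vesicles into clusters, was at 671, 653 and 717 CPM in the LP-10d libraries, 728, 653 and 714 CPM in the 3xTg vehicle libraries and 742, 573 and 1167 CPM in the WT vehicle libraries. The single high value of WT vehicle 3 set the direction: the log2 fold change was -0.24 ± 0.21 with all libraries and 0.08 without that library. For Syn2 it was -0.16 ± 0.13, for Sv2b 0.07 ± 0.16 and for the clathrin assembly protein Snap91 (AP180) -0.07 ± 0.12. Synaptogyrin 1 (Syngr1) stood at 809, 711 and 739 CPM in the 3xTg vehicle libraries and 723, 580.1 and 472 CPM in the WT vehicle libraries, overlapping only through WT vehicle 1, with a log2 fold change of 0.35 ± 0.14 and an edgeR adjusted p of 0.308.

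Among the active zone scaffolds, the short RIMs described above had separated groups, and the long RIMs, Bsn and Pclo did not. Rims1, the long RIM that recruits calcium channels and primes vesicles, had a log2 fold change of -0.00070 ± 0.13 (-0.33 to 0.33). Bassoon (Bsn) was at 802, 789 and 731 CPM in the LP-10d libraries, 803, 881 and 719.8 CPM in the 3xTg vehicle libraries and 984, 655 and 1005 CPM in the WT vehicle libraries. WT vehicle held the lowest and the highest library, and the log2 fold change was -0.14 ± 0.15. Piccolo (Pclo) was at 218, 205 and 218 CPM in the LP-10d libraries, 213, 234 and 208 CPM in the 3xTg vehicle libraries and 213, 180.0 and 324 CPM in the WT vehicle libraries, where WT vehicle 3 exceeded every other library. Its log2 fold change was -0.13 ± 0.18 with that library and 0.14 without it. Without WT vehicle 3, 18 of the 70 members changed the sign of their fold change against WT vehicle, or 25.7%, beside 20.5% of all tested genes.

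**Figure D3:**
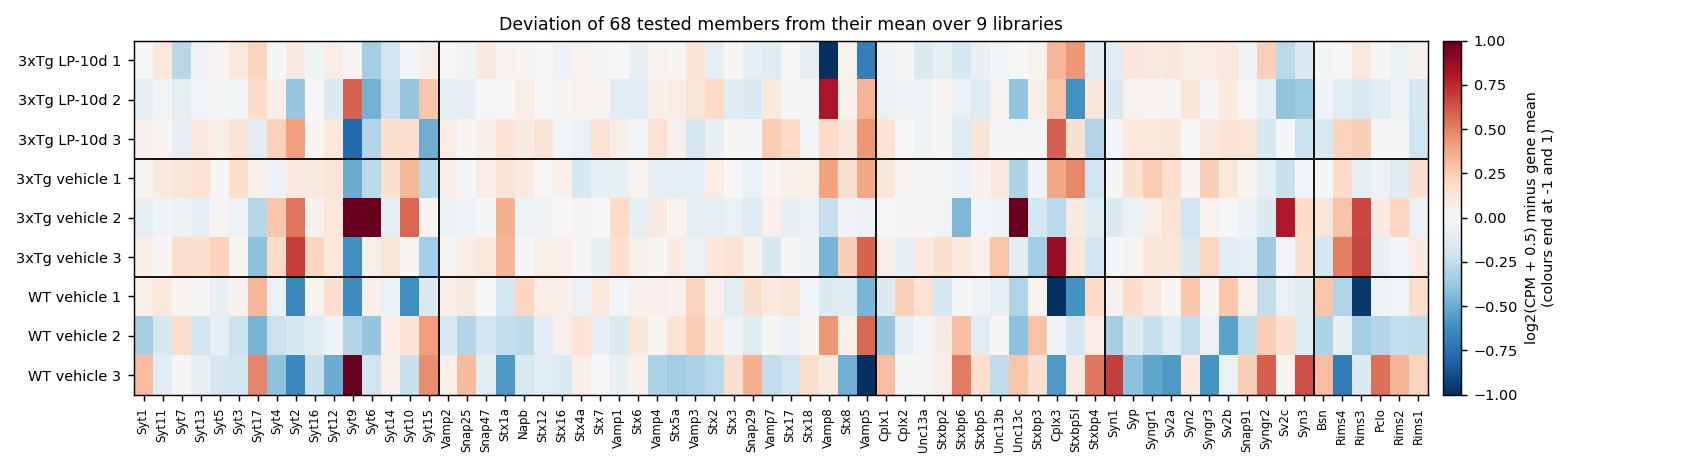
Deviation of 68 of the 70 tested members from its mean over the 9 libraries, as log2(CPM + 0.5), with libraries down the page and genes grouped by role across. Colours end at -1 and 1. WT vehicle 2 is mostly blue and WT vehicle 3 holds 7 members above 0.5 and 8 below -0.5, while the LP-10d libraries are pale.

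In LP-10d-treated 3xTg hippocampus no presynaptic member had a difference from 3xTg vehicle that passed the test. The members that DESeq2 called higher in 3xTg vehicle than in WT vehicle, Stx1a, Rims4, Rims3 and Syt2, were lower on average in the LP-10d group, by amounts that did not pass the test. No member passed edgeR's adjusted threshold, as 0% of all tested genes did. The smallest edgeR adjusted p of a member was 0.9997. At an edgeR unadjusted p under 0.05 there were 2 of 70 members, 2.86%, against 2.9% of all tested genes, and both, Syt6 and Syt7, were lower with LP-10d. Deviations of same-numbered libraries of these groups correlated at 0.104 to 0.375. However, LP-10d 2 correlated more with 3xTg vehicle 1 (0.180) than with 3xTg vehicle 2, so whether the numbers mark pairs is not settled. A fit of the 6 libraries with the replicate number as a block was chosen after seeing the data. In it 11 of 70 members, 15.7%, were at an edgeR unadjusted p under 0.05, against 8.24% of all tested genes. These included Stx1a, Rims4, Syt2 and Unc13a, and again no member passed the adjusted threshold. Without the block the count of 2 was 7 without 3xTg vehicle 1, 5 without WT vehicle 3, 1 without 3xTg vehicle 2 and 0 without LP-10d 1 or LP-10d 2. In these fits the share of all tested genes was not taken. The groups were separated for 1 member that was higher and 5 that were lower with LP-10d, against 5.82% and 5.81% of all genes. Together these were 8.57% of the members, against 11.6% of all tested genes. DESeq2 called 0 members and 0.00575% of all genes, and it called Syt6 without 3xTg vehicle 1. The median log2 fold change was -0.04, with 24 members higher and 46 lower, beside -0.00033 over all tested genes. On the lower side, with none past edgeR's adjusted threshold, were all 6 active zone scaffolds and 12 of 16 synaptotagmins, where 49.9% of all tested genes were higher. With WT vehicle 3 and 3xTg vehicle 2 both left out, 3 of the 6 scaffolds and 12 of the 16 synaptotagmins were lower. This comparison and the one of 3xTg vehicle against WT vehicle share the 3xTg vehicle libraries, so their values are only given side by side.

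The precision of the comparison can be read from its intervals. For 62 of the 70 members the 95% interval of the fold change with LP-10d lay inside 2-fold in either direction, and for 52 it lay inside 0.5 on the log2 scale. For the core genes the log2 fold changes of LP-10d over 3xTg vehicle and their intervals were as follows. Snap25 had -0.04 ± 0.14 (-0.38 to 0.29) and Vamp2 had -0.02 ± 0.09 (-0.24 to 0.21). Syt1 had -0.01 ± 0.14 (-0.36 to 0.34), Cplx1 had -0.04 ± 0.15 (-0.42 to 0.33) and Cplx2 had 0.01 ± 0.10 (-0.24 to 0.25). Among vesicle proteins Syp had 0.04 ± 0.14 (-0.29 to 0.37) and Syn1 had -0.04 ± 0.21 (-0.54 to 0.47). Each of these intervals lay inside 1.5-fold in either direction, that of Syn1 by the smallest margin. Napb, Vamp1, Snap91, Bsn and Pclo lay between -0.12 and 0.07.

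Values follow for these DESeq2-called genes and for the members with separated groups, of which Syt6 is described further below. Stx1a, with values given above, had a log2 fold change of -0.22 ± 0.11 with LP-10d, and its LP-10d library 3 just exceeded 3xTg vehicle 1. Rims4 had -0.29 ± 0.15, Rims3 -0.38 ± 0.24 and Syt2 -0.39 ± 0.22, each with overlapping groups. Syt7 was at 507, 577 and 581 CPM in the LP-10d libraries, 667, 591 and 694 CPM in the 3xTg vehicle libraries and 624, 695 and 619 CPM in the WT vehicle libraries. The LP-10d libraries all lay below the 3xTg vehicle libraries, by a small margin, and also below WT vehicle, with a log2 fold change of -0.23 ± 0.10 against 3xTg vehicle. Unc13a was at 599, 641 and 644 CPM with LP-10d and at 667, 669 and 706 CPM in 3xTg vehicle, separated groups with a log2 fold change of -0.12 ± 0.08. Synapsin 3 (Syn3), the scarcest synapsin, was at 11.7, 10.0 and 11.2 CPM in the LP-10d libraries, 12.8, 14.9 and 14.8 CPM in the 3xTg vehicle libraries and 11.995, 12.001 and 20.7 CPM in the WT vehicle libraries. The log2 fold change was -0.36 ± 0.20, and 14.1% of its exon bases are shared with Timp3. Stxbp3 was the 1 member with separated groups that stood higher with LP-10d, at 18.4, 18.7 and 17.7 CPM, against 17.5, 15.8 and 13.9 CPM in 3xTg vehicle, a log2 fold change of 0.21 ± 0.11. None of these passed edgeR's adjusted threshold.

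**Figure D4:**
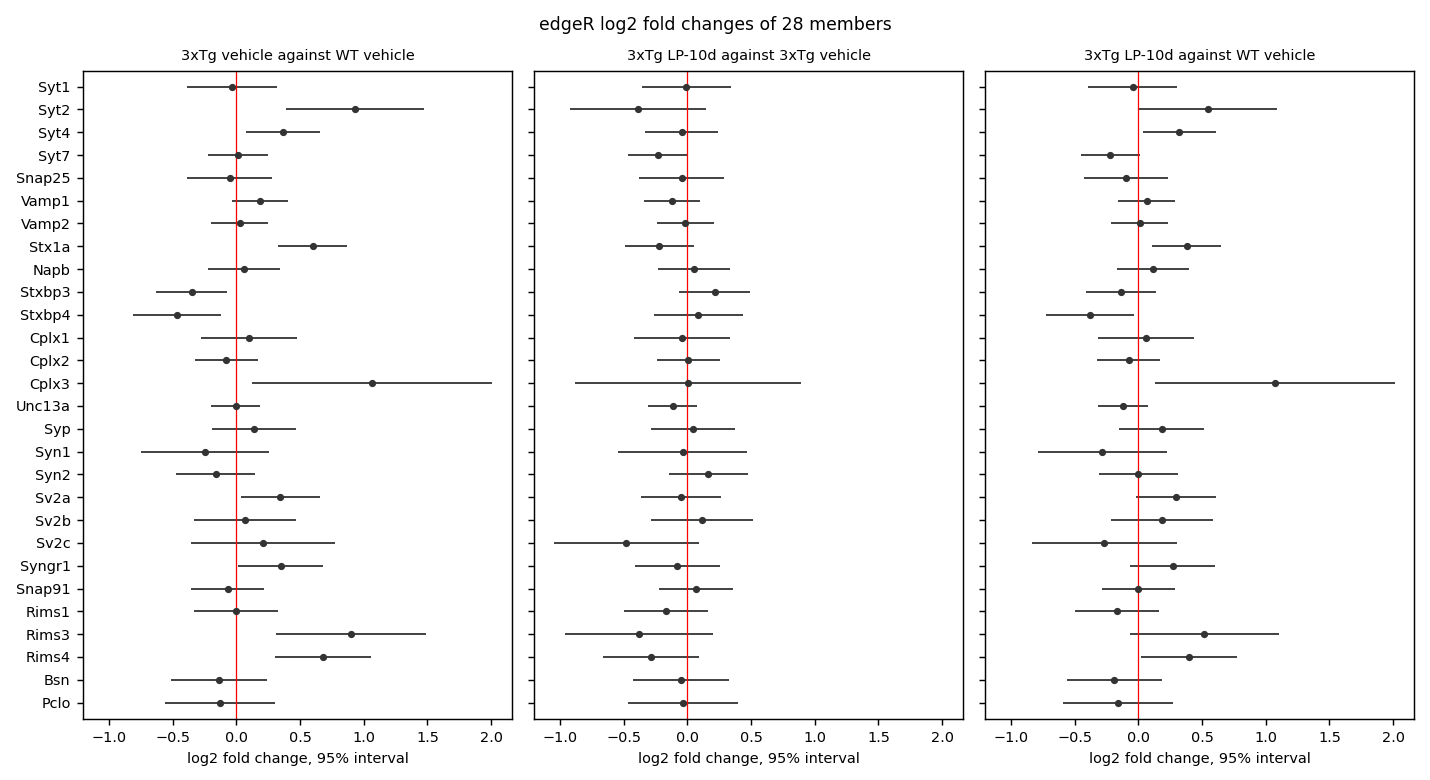
Log2 fold changes from edgeR with 95% intervals for 28 members, in the 3 pairwise comparisons, on 1 shared scale. Stx1a, Rims3, Rims4 and Syt2 lie right of 0 in both comparisons against WT vehicle and left of 0 in LP-10d against 3xTg vehicle, where the intervals of all 4 include 0.

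The difference in Syt6, a synaptotagmin, rested on 1 library. It was at 7.73, 6.996 and 8.01 CPM in the LP-10d libraries, 8.15, 36.9 and 10.3 CPM in the 3xTg vehicle libraries and 10.3, 7.44 and 8.57 CPM in the WT vehicle libraries. Only 3xTg vehicle 2 stood apart, and the log2 fold change of LP-10d over 3xTg vehicle was -1.28 ± 0.48 with it and -0.28 without it. The 3 members Unc13c, Sv2c and Syt9 peaked in that library or came near it, and Unc13c and Syt9 were chosen after their values were seen. Unc13c, a Munc13 best known from cerebellum, was at 29.2, 22.1 and 28.8 CPM with LP-10d, 23.4, 70.4 and 27.0 CPM in 3xTg vehicle and 23.6, 21.7 and 35.4 CPM in WT vehicle. Sv2c, the SV2 form typical of basal ganglia, was at 35.4, 32.4 and 42.1 CPM in the LP-10d libraries, 36.5, 75.0 and 42.0 CPM in the 3xTg vehicle libraries and 40.8, 48.0 and 43.6 CPM in the WT vehicle libraries. In both genes 3xTg vehicle 2 lay far above all other libraries. Syt9, a fast sensor of striatal and limbic neurons, was at 9.93, 15.1 and 5.54 CPM in the LP-10d libraries, 6.84, 20.9 and 6.26 CPM in the 3xTg vehicle libraries and 6.23, 7.97 and 22.5 CPM in the WT vehicle libraries. It was high in both 3xTg vehicle 2 and WT vehicle 3, and next in LP-10d 2. The 8 striatal markers, among them Drd1, Drd2, Adora2a and Penk, were each highest in 3xTg vehicle 2, with Adora2a at 2.63, 105 and 4.79 CPM in 3xTg vehicle. The 5 thalamic markers summed to 227 CPM in 3xTg vehicle 2 and 278 CPM in WT vehicle 3, against 46.4 to 101 CPM elsewhere, and the part of these markers in the values of Syt6, Unc13c, Sv2c and Syt9 was not tested. The fold change of Sv2c changed sign without 3xTg vehicle 2: against WT vehicle it was 0.21 ± 0.23 with that library and -0.17 without it. With WT vehicle 3 and 3xTg vehicle 2 both left out, the log2 fold changes of 3xTg vehicle over WT vehicle were 0.05 for Syt6, 0.14 for Unc13c, -0.19 for Sv2c and -0.12 for Syt9. Those of Stx1a, Rims4, Rims3 and Syt2 were then 0.44, 0.54, 0.95 and 0.80.

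**Figure D5:**
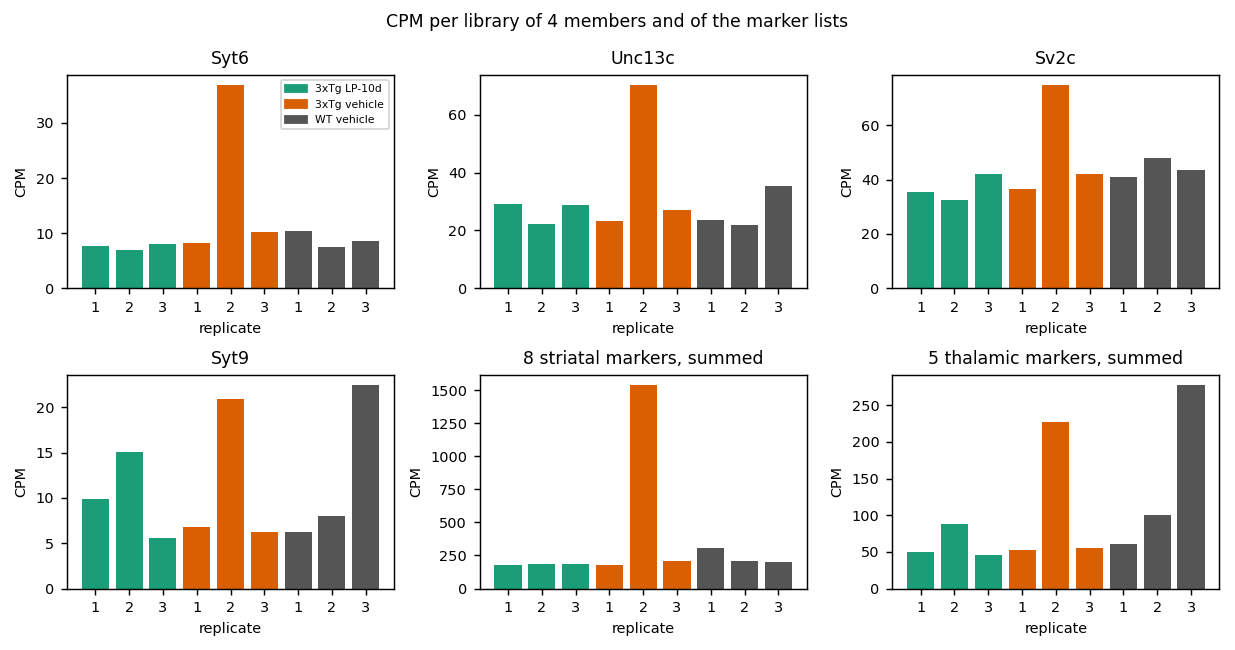
CPM per library of Syt6, Unc13c, Sv2c and Syt9 and the summed CPM of 8 striatal and 5 thalamic markers. Each bar is 1 library, with 3xTg LP-10d left, 3xTg vehicle in the middle and WT vehicle right. The bar of 3xTg vehicle 2 stands out in Syt6, Unc13c, Sv2c and the striatal sum. In Syt9 and the thalamic sum both WT vehicle 3 and 3xTg vehicle 2 stand out, with WT vehicle 3 the higher.

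Between LP-10d-treated 3xTg and WT vehicle hippocampus, Stx1a, Syt4, Sv2a and Cplx3 stood higher and Syt7, Syn3, Stxbp6 and Stx6 lower, with groups that did not overlap, as did Syt5 on the higher and Unc13a on the lower side. No member passed edgeR's adjusted threshold, and 0% of all tested genes did. At an edgeR unadjusted p under 0.05 there were 9 of 70 members, 12.9%, against 8.75% of all tested genes. This count was 1 without LP-10d 3, 4 without LP-10d 1, 15 without WT vehicle 1 and 16 without WT vehicle 2. In these fits the share of all tested genes was not taken. Groups were separated upward for 5 members, against 7.49% of all genes, and downward for 5, against 6.89%. Both directions together came to 14.3% of the members, about the same as the 14.4% of all tested genes. DESeq2 called 0 members and 0.275% of all genes, and it called Syngr1 without WT vehicle 1 and Bsn and Rims4 without WT vehicle 2. The median log2 fold change was 0.0056, with 37 members higher and 33 lower, or 35 and 35 under DESeq2's size factors, beside -0.0027 over all genes. Stx1a had a log2 fold change of 0.38 ± 0.11 (edgeR adjusted p = 0.527). Cplx3 had 1.07 ± 0.38, Syt4 0.32 ± 0.12 and Sv2a 0.29 ± 0.13. On the lower side, Syt7 had -0.22 ± 0.10, Syn3 -0.44 ± 0.20, Stx6, a SNARE of endosomes and the trans-Golgi, -0.14 ± 0.07, and Stxbp6 (amisyn) -0.41 ± 0.15. With WT vehicle 3 and 3xTg vehicle 2 both left out, these 4 were at -0.25, -0.13, -0.15 and -0.28. Stx1a was then at 0.27, Cplx3 at 1.08, Syt4 at 0.24 and Sv2a at 0.14. For Syn3 the groups were separated by a small margin, 11.7 against 11.995 CPM, and WT vehicle 3 was far the highest at 20.7 CPM. Stxbp6 was at 60.0, 64.7 and 62.0 CPM in the LP-10d libraries, 64.6, 49.4 and 72.4 CPM in the 3xTg vehicle libraries and 67.1, 83.5 and 96.9 CPM in the WT vehicle libraries. Its LP-10d libraries were close together and below all WT vehicle libraries, of which replicate 3 was highest.

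The mean of both 3xTg groups was set against WT vehicle to use all 9 libraries at once. Stx1a, Syt4, Sv2a and Syt5 were higher in all 6 libraries of 3xTg mice than in any WT vehicle library. They were the only 4 members with separated groups upward, against 3.83% of all tested genes, and there was no member with separated groups downward, against 3.1%. Both directions together came to 5.71% of the members and 6.93% of all tested genes. Stx1a averaged 192 ± 20.2 CPM over the 3xTg libraries (SD, n = 6) and 136 ± 19.3 CPM in WT vehicle (SD, n = 3), with a log2 fold change of 0.49 ± 0.10 and an edgeR adjusted p of 0.126. For Syt4 the log2 fold change was 0.34 ± 0.10, for Sv2a 0.32 ± 0.11 and for Syt5 0.17 ± 0.07. Syt5 was at 148, 143 and 151 CPM in the LP-10d libraries, 146, 148 and 170.2 CPM in the 3xTg vehicle libraries and 137, 137 and 129 CPM in the WT vehicle libraries. The margin between its lowest 3xTg library and its highest WT vehicle library was small. No member and 0% of all genes passed edgeR's adjusted threshold. At an edgeR unadjusted p under 0.05 there were 14 of 70 members, 20%, against 14.8% of all tested genes. Without WT vehicle 2 there were 24, in a fit where the share of all tested genes was not taken. DESeq2 called 4 members, Stx1a, Rims4, Syt2 and Rims3, and 2.17% of all genes. It called 9 without WT vehicle 2 and 7 without WT vehicle 1. It called 1, Stx1a, without LP-10d 1, LP-10d 3, 3xTg vehicle 3 or WT vehicle 3. The median log2 fold change of the members was 0.04, with 38 higher and 32 lower, beside -1.8e-05 over all genes.

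Other genes of the nerve terminal were read from 4 lists, 57 genes in all, every one of which was tested. None passed edgeR's adjusted threshold in any comparison. In 3xTg vehicle against WT vehicle their median log2 fold change was -0.03, with 27 higher and 30 lower. Of the 57, 5 were at an edgeR unadjusted p under 0.05, or 8.77%, against 14.1% of all tested genes, and DESeq2, which called 2.19% of all genes, called 3, Doc2a, Doc2b and Ppfia2. The calcium-binding proteins Doc2a and Doc2b, linked to spontaneous and asynchronous release, pointed in opposite directions. Doc2a was at 10.8, 8.24 and 15.5 CPM in the LP-10d libraries, 15.9, 20.4 and 19.5 CPM in the 3xTg vehicle libraries and 8.68, 9.75 and 9.18 CPM in the WT vehicle libraries. The 3xTg vehicle libraries stood above all WT vehicle and all LP-10d libraries, with log2 fold changes of 1.01 ± 0.20 for 3xTg vehicle over WT vehicle and -0.69 ± 0.20 for LP-10d over 3xTg vehicle. Doc2b was at 88.9, 92.0 and 92.9 CPM in the LP-10d libraries, 91.9, 80.4 and 90.4 CPM in the 3xTg vehicle libraries and 114, 112 and 121 CPM in the WT vehicle libraries, lower in all 6 libraries of 3xTg mice than in any WT vehicle library, with log2 fold changes of -0.40 ± 0.08 for 3xTg vehicle and -0.34 ± 0.08 for LP-10d against WT vehicle. The edgeR adjusted p-values of 3xTg vehicle against WT vehicle were 0.104 for Doc2a and 0.0953 for Doc2b. DESeq2 also called Doc2b in LP-10d against WT vehicle. Ppfia2 (liprin-alpha 2), an active zone organiser, was at 118, 139 and 132 CPM in the LP-10d libraries, 123, 96.0 and 109.6 CPM in the 3xTg vehicle libraries and 154, 136 and 178 CPM in the WT vehicle libraries, and its log2 fold change in 3xTg vehicle against WT vehicle was -0.51 ± 0.12. Of the 13 genes for transmitter loading and other vesicle proteins and the 17 of vesicle endocytosis, none reached an edgeR unadjusted p of 0.05 in any comparison. In the transmitter loading and vesicle list the median on the log2 scale was 0.09 (10 of 13 higher), and in the endocytosis list it was -0.07 (5 of 17 higher) in 3xTg vehicle against WT vehicle.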

How the data were processed

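Total RNA from mouse hippocampus was sequenced in 9 libraries. The authors deposited raw gene counts (55471 Ensembl genes) and FPKM values for the 33175 genes with a count. The deposited FPKM equal the count per total count and gene length, to a relative deviation of 4.66e-14. Reads were placed on mm10, per the submitters' processing notes. No source used here names an aligner, a counter or a strand setting. Reads of overlapping genes may therefore mix: Syp, Snap47, Syt4, Syt12, Stx18 and Syn3 share over 10% of their exon bases with another gene (GENCODE M21). All 75 members had the deposited position of that annotation.

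Counts were tested with edgeR 4.0.16 in R 4.3.3: a low-count filter (filterByExpr), TMM normalization, group means estimated jointly over all 9 libraries, the newer quasi-likelihood test and Benjamini-Hochberg adjustment over 17396 genes, with a threshold of 0.05. The common biological coefficient of variation was 0.157. Values are given as CPM from the counts, as log2 fold changes ± SE and as 95% intervals. DESeq2 1.42.0 and other settings were alternatives. With 3 libraries against 3, an exact permutation test of 1 gene cannot go below p = 0.1. Deviations of same-numbered LP-10d and 3xTg vehicle libraries from their group means correlated at 0.173, 0.104 and 0.375. Libraries of different number reached similar values, with 0.180 for LP-10d 2 and 3xTg vehicle 1 and 0.386 for LP-10d 3 and WT vehicle 1. The numbers were taken as pairs only in an alternative fit, from the data and not from a stated shared batch. The methods were checked on simulated data. No pair of replicates agreed within sampling noise (chi-square per degree of freedom at least 4.99). Library totals limit precision for scarce genes, and intervals cover the spread between libraries, which includes counting error.

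The members and lists were chosen with earlier results of these data known. Named are core genes (24 in all, some of them not reported here), members past the adjusted threshold, up to 4 per direction and comparison with the smallest p among those with separated groups and at least 1 CPM, and up to 3 per other list and comparison. Other members named (those of at least 100 FPKM, those of extreme spread or with too few counts, Syt16, Unc13c and Syt9) were chosen after their values were seen. RefSeq promoters were matched by symbol for 57 of the 75 members.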

Additional observations from a re-analysis of the deposited data

How the results depend on the processing

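The 3 libraries per group set the precision, and the 5 members with at most 9 counts in a library could not be tested. No member passed edgeR's adjusted threshold under any edgeR setting: other scaling, no filter, the legacy test, the replicate block, the fit of 6 libraries or any library left out. DESeq2 called 4 members in 3xTg vehicle against WT vehicle and 4 in the mean of both 3xTg groups against WT vehicle. Leaving out each library in turn, DESeq2 called 1 to 7 members in 3xTg vehicle against WT vehicle, 0 to 1 in LP-10d against 3xTg vehicle, 0 to 2 in LP-10d against WT vehicle and 1 to 9 in the mean against WT vehicle. Members at an edgeR unadjusted p under 0.05 then numbered 10 to 20, 0 to 7, 1 to 16 and 10 to 24 in these comparisons, in the same order. Shares of all tested genes were not taken in the fits that left out libraries, for either tool. The fit of only the 6 libraries gave 10 in 3xTg vehicle against WT vehicle, where the share of all tested genes was not taken. In LP-10d against 3xTg vehicle it gave 7 of 70 members, 10%, against 6.02% of the 16947 genes tested in that fit. In the main fit these shares were 2.86% and 2.9%. In LP-10d against 3xTg vehicle 6 were found with WT vehicle 3 and 3xTg vehicle 2 both left out. The DESeq2 counts without libraries, all unadjusted counts and the block fit of 6 libraries were chosen after seeing the data. No median log2 fold change of the members moved by more than the spread between libraries (0.0519). Each main median was itself smaller than this line, so a median could reach 0 and still count as unmoved. In 3xTg vehicle against WT vehicle it ran from 0.0202 to 0.0792 when 1 library was left out. Between 3xTg and WT libraries the replicate numbers do not pair the samples, with correlations of -0.18 to 0.16 between deviations of the same number. With the replicate block in the fit of 9 libraries 1 member was at an unadjusted p under 0.05 in LP-10d against 3xTg vehicle and Rims1 had a log2 fold change of 0.00634 in 3xTg vehicle against WT vehicle. In the fit of the 6 libraries of LP-10d and 3xTg vehicle it is not settled whether the numbers mark pairs. The block there gave 11 members at that threshold, a median of -0.0468 and no adjusted call, and neither block fit changed another call.

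Of 689 alternative values of the 43 named results, 652 kept sign and side of the threshold, 5 crossed the threshold under DESeq2 and 32 changed sign. Core genes were followed only in 3xTg vehicle against WT vehicle, and elsewhere only members with separated groups were. Members changed sign there too without WT vehicle 3 and 3xTg vehicle 2. In LP-10d against 3xTg vehicle 15.7% did, beside 16.2% of all tested genes. In LP-10d against WT vehicle it was 24.3% beside 22.2%, and in the mean against WT vehicle 28.6% beside 23%. Within the named results all sign changes were in uncalled core genes in 3xTg vehicle against WT vehicle. Leaving out each library in turn, their log2 fold changes ran from -0.0010 to 0.30 for Syp, -0.45 to 0.0801 for Syn1, -0.19 to 0.12 for Syt1, -0.0385 to 0.0757 for Syt7, -0.20 to 0.0874 for Snap25 and -0.0412 to 0.0634 for Vamp2. They ran from -0.0476 to 0.31 for Cplx1, -0.15 to 0.0206 for Cplx2, -0.12 to 0.28 for Sv2b, -0.17 to 0.40 for Sv2c, -0.14 to 0.0824 for Rims1 and -0.0427 to 0.0429 for Unc13a. For Pclo the range was -0.30 to 0.14, for Napb -0.0338 to 0.22 and for Snap91 -0.19 to 0.05002. With WT vehicle 3 and 3xTg vehicle 2 both left out, the values that changed sign were 0.13 for Syn1, 0.17 for Syt1, 0.11 for Snap25, -0.19 for Sv2c, 0.14 for Rims1, 0.0941 for Pclo and 0.0623 for Snap91. These fits use fewer samples, and the cause of the sign changes was not tested.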
